A study of Mus musculus with 16 samples.

Results

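The first day of outgrowth in the mesoderm of the mouse forelimb bud was described by comparing the mesoderm libraries of embryonic stage E10.5 with those of stage E9.5, 1 day earlier. The 4 libraries were taken by stage and layer from the labels, 2 at each stage, out of 16 libraries in the series. The other 12 are the later mesoderm stages (E11.5 and E12.5) and the ectoderm at all 4 stages. All embryos were of the B6 strain with no further allele or treatment named. The most distal 150 µm of the forelimb was cut off in cold PBS, kept for 20 min in 0.25% trypsin on ice, and parted with forceps into the ectoderm (the surface epithelium) and the mesoderm (mesenchyme with its vessels and blood). Polyadenylated RNA was sequenced from each layer with a stranded library kit. The 2 libraries of a stage are biological replicates, and the mesoderm and ectoderm libraries with the same stage and number came from 1 batch of embryos. Replicate 1 was extracted with the RNeasy Plus Mini kit and replicate 2 with the RNeasy Mini kit at every stage. A strip of the same depth is a larger share of the small E9.5 bud than of the longer E10.5 bud, so that a change within the same cells and a change in which cells lay in the strip cannot be told apart. In bulk tissue fewer cells of a type and less RNA per cell cannot be told apart either.

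A limb bud grows out as mesenchyme under the apical ectodermal ridge, which supplies FGFs. Its proximal cells express Meis factors and respond to retinoic acid from the trunk, its posterior margin secretes Sonic hedgehog, and its 5′ (posterior) HoxA and HoxD genes come on in order as the distal limb forms. Muscle precursors, vessels, nerves, melanoblasts and macrophages enter the bud from outside, and blood circulates through it.

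The mesoderm changed widely within this day. The E9.5 libraries held 23101374 (replicate 1) and 16778322 (replicate 2) gene counts, and the E10.5 libraries 30438214 and 13806300. Levels are given as CPM (counts per 1000000, with TMM-scaled library sizes), always in the order replicate 1 and replicate 2, and log2 changes are E10.5 minus E9.5 with their standard error. Of 15501 genes tested, 4297 were called by edgeR's quasi-likelihood test with the replicate number as a block, at a Benjamini-Hochberg adjusted p under 0.05, which is 27.7% of the genes tested. Of these, 2127 genes rose (13.7%) and 2170 fell (14%), and the median log2 change of all tested genes was 0.002. More than 2-fold rises numbered 1086 and more than 2-fold falls 691. These shares are the background against which the counts of each gene group below are set. The first principal component of the 4 libraries held 64.56% of their variance and parted the stages, and the second held 27.09% and parted the replicate numbers. Without the block 1433 genes were called (821 higher, 612 lower), all of them among the 4297. Leaving out 1 library moved the count to 2216 (without E9.5 replicate 1), 3332 (without E9.5 replicate 2), 2250 (without E10.5 replicate 1) and 2546 (without E10.5 replicate 2). On the deposited FPKM values the split of the calls was 2366 higher against 1269 lower, and without the filter on low counts it was 2519 against 1695. In the account that follows, a call that was lost without the block or without 1 library is given with that adjusted p.

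The most posterior Hox genes of the A and D clusters came on in the mesoderm between these stages. Hoxd12 (chromosome 2, 74675013 to 74677705), a homeobox gene of the distal limb, stood at 0.43 and 0.492 CPM at E9.5 and 317 and 340.0 CPM at E10.5 (log2 change 9.52 ± 1.02, edgeR adjusted p = 3.9e-05). Hoxa13 (chromosome 6, 52257694 to 52260880), which patterns the hand plate, stood at 0.573 and 0.307 CPM at E9.5 and 165 and 202 CPM at E10.5 (log2 change 8.65 ± 0.88, edgeR adjusted p = 2.63e-05). Both genes were close to absent in each E9.5 library and high in each E10.5 library. Hoxd13, the partner of Hoxa13 in the hand plate, was at 10.1 and 8.36 CPM at E9.5 and 401 and 745 CPM at E10.5 (log2 change 5.93 ± 0.78, edgeR adjusted p = 0.000182). Hoxd11, a gene of the forearm, was at 6.21 and 2.71 CPM at E9.5 and 135 and 95.2 CPM at E10.5 (log2 change 4.72 ± 0.58, edgeR adjusted p = 0.000112). Hoxd13 already had some counts at E9.5, and at E10.5 replicate 2 was the higher library. Evx2, the homeobox neighbour of Hoxd13, went from 0.191 and 0.246 CPM to 20.1 and 65.8 CPM (log2 change 7.43 ± 1.32, edgeR adjusted p = 0.00178).

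Genes further along the A cluster rose as well. Hoxa10, a gene of the upper arm and forearm, stood at 52.7 and 46.1 CPM at E9.5 and 189 and 241 CPM at E10.5 (log2 change 2.12 ± 0.45, edgeR adjusted p = 0.00403). Hoxa11, a gene of the forearm, stood at 52.5 and 32 CPM at E9.5 and 202 and 108 CPM at E10.5 (log2 change 1.86 ± 0.35, edgeR adjusted p = 0.00193). Neither gene's stages overlapped. Hoxd10 stood at 92.2 and 77.7 CPM at E9.5 and 119 and 141 CPM at E10.5 and did not pass the test (edgeR adjusted p = 0.449). Per length of transcript, Hoxd13 had 3.08 and 2.71 FPKM at E9.5 and 129 and 265 FPKM at E10.5, Hoxd12 0.1 and 0.119 FPKM at E9.5 and 99.5 and 117 FPKM at E10.5 and Hoxa13 0.181 and 0.105 FPKM at E9.5 and 60.7 and 75.9 FPKM at E10.5. On this FPKM scale Hoxd13 was the highest of these 3 genes in each E10.5 library.

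Transcripts next to the posterior ends of the A cluster rose too. Hottip, a noncoding RNA transcribed away from Hoxa13, had no counts at E9.5 and 15.9 and 43.2 CPM at E10.5, at least 311-fold higher (floor of 3 counts over the group). Evx1, the homeobox gene beyond it, was at 0.669 and 0.738 CPM at E9.5 and 76.1 and 66.2 CPM at E10.5 (log2 change 6.68 ± 0.71, edgeR adjusted p = 3.8e-05), and its antisense RNA Evx1os at 0.239 and 0.184 CPM at E9.5 and 70.8 and 93.2 CPM at E10.5 (log2 change 8.54 ± 0.98, edgeR adjusted p = 6.53e-05). The strand setting of the counting is not stated, so that reads of overlapping genes on opposite strands, such as Evx1 and Evx1os or Hoxa11 and its antisense RNA, cannot be told apart. In the annotation Hottip and Hoxa13 do not overlap.

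**Figure D1:**
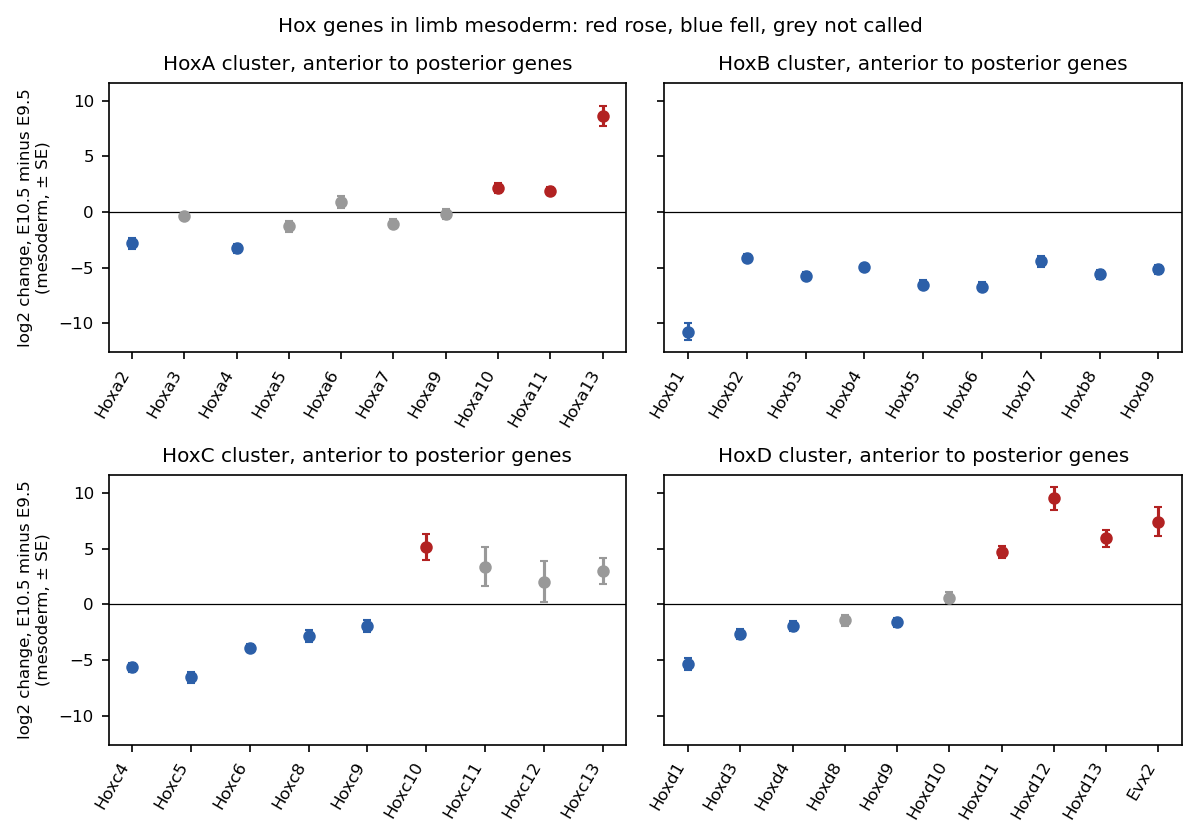
Log2 change (E10.5 minus E9.5, ± SE from the edgeR fit) of genes of the 4 Hox clusters in mesoderm, ordered along each cluster. Hoxa13, Hoxd11, Hoxd12, Hoxd13 and Evx2 stand far above 0 and all 9 HoxB genes below it. The fitted values of genes without counts at a stage (Hoxb1, Hoxc10 to Hoxc12) depend on the fit's prior count and are no bounds.

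At the other end of the clusters transcripts fell. Hoxa2 was at 7.55 and 8.61 CPM at E9.5 and 0.828 and 1.64 CPM at E10.5 (log2 change -2.81 ± 0.48, edgeR adjusted p = 0.0011). Hoxa4 was at 16.4 and 14 CPM at E9.5 and 1.07 and 2.25 CPM at E10.5 (log2 change -3.26 ± 0.37, edgeR adjusted p = 5.58e-05). Hoxd1 stood at 7.45 and 10.8 CPM at E9.5 and 0.207 and 0.205 CPM at E10.5 (log2 change -5.35 ± 0.57, edgeR adjusted p = 5.57e-05). In each of these genes both E10.5 libraries lay under both E9.5 libraries. Hoxd3 was at 8.98 and 24 CPM at E9.5 and 1.52 and 3.55 CPM at E10.5 (log2 change -2.66 ± 0.47, edgeR adjusted p = 0.00133), with an adjusted p of 0.0934 without the block. In Hoxd3 replicate 2 was the higher library at both stages. Hoxd4 was at 17.9 and 51 CPM at E9.5 and 3.83 and 16.2 CPM at E10.5 and Hoxd9 at 218 and 218 CPM at E9.5 and 85.6 and 59.8 CPM at E10.5. Their calls (edgeR adjusted p = 0.00518 and 0.0154) were lost without the block, at 0.422 and 0.128. The call of Hoxd4 was also lost at an adjusted p of 0.0699 without the E9.5 library of replicate 1 and 0.0514 without the E10.5 library of replicate 1, and that of Hoxd9 at 0.0528 without the E9.5 library of replicate 1, 0.0934 without the E9.5 library of replicate 2, 0.0771 without the E10.5 library of replicate 1 and 0.108 without the E10.5 library of replicate 2. In total 3 HoxA genes rose and 3 fell of 11 tested, and 4 HoxD genes, Evx2 included, rose and 4 fell of 10. Without the block the HoxD counts were 4 and 1, and 2 HoxD genes fell without E9.5 replicate 1 or without E10.5 replicate 1. Hoxa3, Hoxa5, Hoxa6, Hoxa7, Hoxa9 and Hoxd8 did not pass, with log2 changes of -0.39, -1.28, 0.92, -1.05, -0.15 and -1.43 and edgeR adjusted p between 0.0527 and 0.833.

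The whole HoxB cluster fell. Each of the 9 HoxB genes tested was called lower, beside 14% of all tested genes, with a median log2 change of -5.58, and Hoxb13, with 1 count in the 4 libraries, was not tested. Hoxb1 had 10.8 and 14.3 CPM at E9.5 and no counts at E10.5, at least 179-fold lower. Hoxb6 stood at 42.3 and 43.9 CPM at E9.5 and 0.483 and 0.273 CPM at E10.5 (log2 change -6.72 ± 0.40, edgeR adjusted p = 9.83e-07). Hoxb5 was at 39.7 and 41.6 CPM at E9.5 and 0.552 and 0.273 CPM at E10.5 (log2 change -6.51 ± 0.38, edgeR adjusted p = 9.4e-07). Every HoxB gene had over 10 CPM in both E9.5 libraries and under 2 CPM in both E10.5 libraries. Log2 changes were -4.12 for Hoxb2, -5.75 for Hoxb3, -4.96 for Hoxb4, -4.42 for Hoxb7, -5.58 for Hoxb8 and -5.13 for Hoxb9. Hoxb5os, an antisense RNA that overlaps Hoxb5 and Hoxb6, had 367 counts at E9.5 and 2 at E10.5, a ratio of 215 (95% counting interval 59.2 to 1780). The 9 falls were called in every left-out library and without the block.

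Anterior HoxC genes fell as well. Hoxc5 stood at 65.8 and 62.6 CPM at E9.5 and 0.621 and 0.75 CPM at E10.5 (log2 change -6.55 ± 0.51, edgeR adjusted p = 3.7e-06). Hoxc4 was at 36.2 and 41.8 CPM at E9.5 and 0.621 and 0.955 CPM at E10.5 (log2 change -5.66 ± 0.39, edgeR adjusted p = 1.33e-06). Hoxc6 was at 36.4 and 36.5 CPM at E9.5 and 3.21 and 1.23 CPM at E10.5 (log2 change -3.91 ± 0.39, edgeR adjusted p = 2.28e-05). All 3 were at 36.2 CPM or more in each E9.5 library and at 3.21 CPM or less in each E10.5 library. Hoxc8 was low at E9.5 already, at 4.11 and 4.0 CPM at E9.5 and 0.621 and 0.409 CPM at E10.5 (log2 change -2.85 ± 0.55, edgeR adjusted p = 0.00285). Hoxc9 was lower still, at 1.39 and 1.05 CPM at E9.5 and 0.345 and 0.273 CPM at E10.5 (log2 change -1.94 ± 0.51, edgeR adjusted p = 0.0151). The call of Hoxc9 was lost without the block (0.0511) and at an adjusted p of 0.106 without the E9.5 library of replicate 1, 0.113 without the E10.5 library of replicate 1 and 0.0608 without the E10.5 library of replicate 2. Posterior HoxC genes stayed near the detection limit in mesoderm. Hoxc10 had 0 counts at E9.5 and 11 at E10.5, at least 3.12-fold higher, with a call (edgeR adjusted p = 0.00765) lost at 0.0748 without the E9.5 library of replicate 1 and 0.0509 without the E10.5 library of replicate 1. Hoxc11 had 3 counts and Hoxc12 1 count at E10.5 and none at E9.5. Of 9 HoxC genes tested 1 rose and 5 fell, and the rises numbered 0 without E9.5 replicate 1 or E10.5 replicate 1 and 2 without E10.5 replicate 2. Hoxc13 had 1 count at E9.5 and 12 at E10.5, a ratio of 10.2 (95% counting interval 1.51 to 437), and was not called (edgeR adjusted p = 0.0689).

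Factors of the proximal limb fell over the same day. Meis2 (chromosome 2, 115863064 to 116065839), a homeobox cofactor that marks the proximal limb, stood at 239 and 279 CPM at E9.5 and 4.35 and 6.14 CPM at E10.5 (log2 change -5.66 ± 0.17, edgeR adjusted p = 3.18e-09). Its relative Meis1 was at 71.6 and 98 CPM at E9.5 and 2.93 and 3.75 CPM at E10.5 (log2 change -4.65 ± 0.25, edgeR adjusted p = 3.51e-07). Meis3 was at 15.7 and 11.1 CPM at E9.5 and 0.932 and 1.02 CPM at E10.5 (log2 change -3.79 ± 0.23, edgeR adjusted p = 7.35e-07). The stages of all 3 genes were far apart. Pbx3 and Pbx2, which encode partners of Meis proteins on DNA, had log2 changes of -1.39 and -0.43 and were called lower as well. The call of Pbx2 was lost without the block (adjusted p = 0.242) and at 0.106 without the E10.5 library of replicate 1, 0.125 without the E10.5 library of replicate 2 and 0.183 without the E9.5 library of replicate 1.

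Genes of retinoic acid supply and the receptor gene Rarb fell, and the degrading enzyme gene Cyp26b1 and the receptor gene Rarg rose. Aldh1a2, which makes retinoic acid, was at 35.4 and 24.8 CPM at E9.5 and 0.138 and 1.43 CPM at E10.5 (log2 change -5.71 ± 0.82, edgeR adjusted p = 0.000477). Rdh10, which makes its precursor retinal, was at 43.7 and 47.8 CPM at E9.5 and 4.45 and 7.71 CPM at E10.5 (log2 change -2.96 ± 0.37, edgeR adjusted p = 0.000126). Rarb (chromosome 14, 16430839 to 16819156), a receptor that retinoic acid itself induces, was at 70.0 and 60.9 CPM at E9.5 and 0.414 and 0.409 CPM at E10.5 (log2 change -7.34 ± 0.48, edgeR adjusted p = 9.83e-07). Aldh1a2 was uneven at E10.5, where replicate 2 kept 1.43 CPM, and Rarb was low in both libraries. Cyp26b1 (chromosome 6, 84571414 to 84593908), which degrades retinoic acid in the distal limb, rose from 29.7 and 23.3 CPM to 958 and 830.1 CPM (log2 change 5.08 ± 0.23, edgeR adjusted p = 7.85e-08). Per length it stood at 5.09 and 4.49 FPKM at E9.5 and 174 and 166 FPKM at E10.5. The receptor gene Rarg was at 136 and 111 CPM at E9.5 and 278 and 201 CPM at E10.5 (log2 change 0.94 ± 0.17, edgeR adjusted p = 0.00135), with an adjusted p of 0.151 without the block. Of 21 tested genes of the proximal and retinoic acid list, 3 rose and 11 fell, with a median of -0.87, and without the block 1 rose and 9 fell. Aldh1a1, with 16 counts, was not tested.

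**Figure D2:**
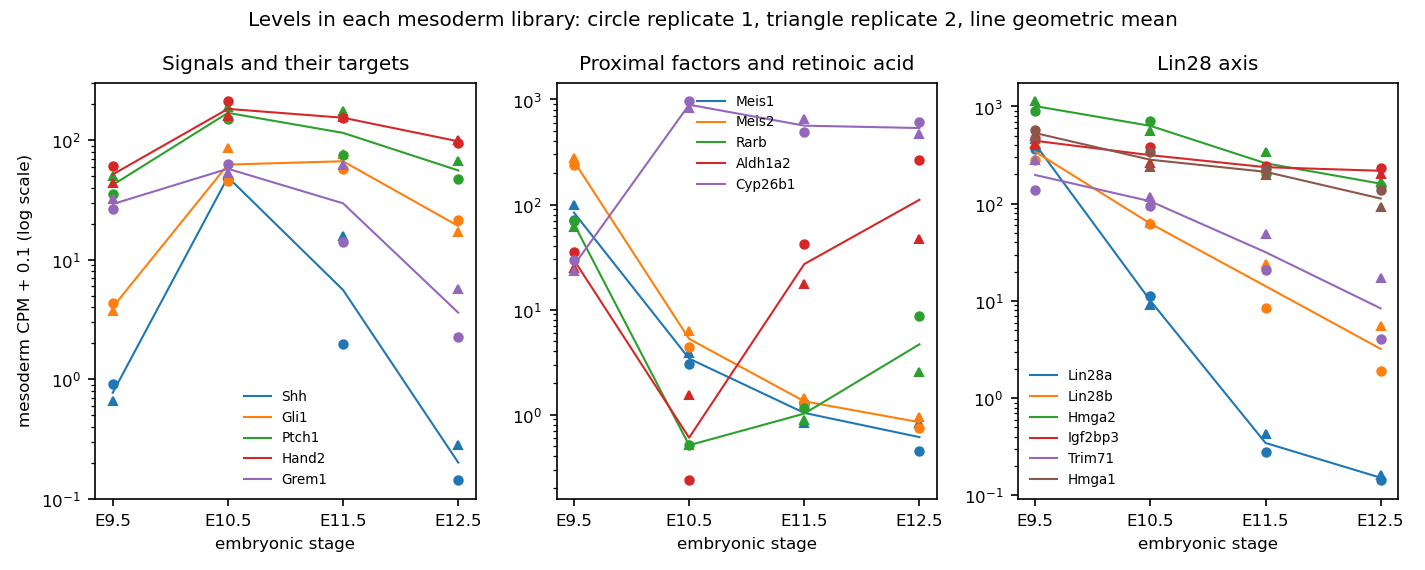
CPM + 0.1 (log scale) in each mesoderm library at all 4 stages for Hedgehog genes (left), proximal and retinoic acid genes (middle) and the Lin28 axis (right). Circles are replicate 1, triangles replicate 2 and lines the geometric mean. The step described here is the first one: Shh, Gli1 and Cyp26b1 go up, and Meis1, Meis2, Rarb and Lin28a go down.

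Other factors of the distal mesenchyme rose, and general limb mesenchyme genes were high at both stages. Tfap2b (chromosome 1, 19208914 to 19238576), an AP-2 transcription factor, stood at 0.334 and 0.123 CPM at E9.5 and 120.4 and 251 CPM at E10.5 (log2 change 9.48 ± 0.54, edgeR adjusted p = 3.84e-07). Sall1, a zinc finger factor of the distal limb, was at 31.3 and 56 CPM at E9.5 and 440.3 and 361 CPM at E10.5 (log2 change 3.25 ± 0.32, edgeR adjusted p = 1.89e-05). Wnt5a, a ligand that guides distal outgrowth, was at 67.2 and 81.7 CPM at E9.5 and 478 and 550.1 CPM at E10.5 (log2 change 2.79 ± 0.15, edgeR adjusted p = 3.51e-07). For each of these genes both E10.5 libraries were above both E9.5 libraries. Etv4, an ETS factor that FGFs induce, was at 95.9 and 76.2 CPM at E9.5 and 196 and 146 CPM at E10.5 (log2 change 0.98 ± 0.16, edgeR adjusted p = 0.000735). Prrx1, the general factor of limb mesenchyme, was at 461 and 627 CPM at E9.5 and 410.3 and 433 CPM at E10.5 (edgeR adjusted p = 0.476), and Tbx5, the forelimb T-box factor, at 94.2 and 148 CPM at E9.5 and 195 and 162 CPM at E10.5 (edgeR adjusted p = 0.371). The stages of Tbx5 did not overlap, and those of Prrx1 did not either. Zbtb16, a zinc finger factor of the proximal limb, was at 48 and 68.9 CPM at E9.5 and 21.5 and 14 CPM at E10.5 (log2 change -1.65 ± 0.38, edgeR adjusted p = 0.00691), a call lost without the block (0.0751) and at 0.0886 without the E10.5 library of replicate 2. Of 26 tested limb factors 8 rose and 2 fell. Without the block 5 rose and none fell, and without E9.5 replicate 1 or E10.5 replicate 1 the rises numbered 4 and 5. Falls numbered 1 without E9.5 replicate 2 and 0 without E10.5 replicate 2.

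Genes of the anterior limb bud split. Irx3, a homeobox gene of the early anterior and proximal bud, stood at 92.9 and 71.8 CPM at E9.5 and 0.725 and 0.205 CPM at E10.5 (log2 change -7.35 ± 0.31, edgeR adjusted p = 6.29e-08). Irx5, its neighbour with a like role, stood at 21.1 and 22.7 CPM at E9.5 and 0.311 and 0 CPM at E10.5 (log2 change -6.88 ± 0.55, edgeR adjusted p = 4.23e-06). In both genes the stages were far apart. Alx1 and Alx4, anterior homeobox genes, were called lower too, with log2 changes of -3.39 and -0.98, and the call of Alx4 was lost without the block (adjusted p = 0.308) and at 0.157 without the E10.5 library of replicate 1, 0.212 without the E10.5 library of replicate 2, 0.0667 without the E9.5 library of replicate 1 and 0.306 without the E9.5 library of replicate 2. Zic2, a zinc finger factor, rose by 1.88 on the log2 scale, a call lost without the block (adjusted p = 0.0755) and at 0.0725 without the E10.5 library of replicate 1, 0.052 without the E10.5 library of replicate 2 and 0.137 without the E9.5 library of replicate 1. Pax9, a factor of the later anterior margin, had 1 count at E9.5 and 119 at E10.5, a ratio of 101 (95% counting interval 17.9 to 4040). In all, 3 of 11 tested anterior genes rose and 5 fell.

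Shh and several of its target genes rose. Shh (chromosome 5, 28456815 to 28467256), the signal of the posterior margin, stood at 0.812 and 0.553 CPM at E9.5 and 47.3 and 50.5 CPM at E10.5 (log2 change 6.12 ± 0.81, edgeR adjusted p = 0.00026). The ligand was below 1 CPM in both E9.5 libraries, and its stages were far apart. Gli1, a transcription factor that is itself a direct Hedgehog target, was at 4.2 and 3.63 CPM at E9.5 and 45.5 and 85.1 CPM at E10.5 (log2 change 3.96 ± 0.36, edgeR adjusted p = 1.22e-05). Ptch1, the receptor that the pathway induces as feedback, was at 35.1 and 50.4 CPM at E9.5 and 151 and 188 CPM at E10.5 (log2 change 2.01 ± 0.30, edgeR adjusted p = 0.000504). At E10.5 Gli1 was higher in replicate 2, and the stages overlapped neither in Gli1 nor in Ptch1. Hand2, the posterior factor that acts upstream of Shh, was at 60.2 and 44 CPM at E9.5 and 210.2 and 158 CPM at E10.5 (log2 change 1.82 ± 0.43, edgeR adjusted p = 0.00781), a call lost without the block (0.0792) and at an adjusted p of 0.0688 without the E9.5 library of replicate 1.

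Other genes of the Hedgehog list fell or did not pass, and Kif7 was called higher. Cdon, a co-receptor for the ligand, was at 158 and 174 CPM at E9.5 and 51.5 and 51.3 CPM at E10.5 (log2 change -1.69 ± 0.18, edgeR adjusted p = 3.52e-05). Zeb2, a zinc finger factor of the list, was at 14.9 and 24.1 CPM at E9.5 and 5.14 and 6.34 CPM at E10.5 (log2 change -1.75 ± 0.32, edgeR adjusted p = 0.00186). Disp1, which releases the ligand from its source cells, was at 83.6 and 95.7 CPM at E9.5 and 63.1 and 49.4 CPM at E10.5 (log2 change -0.67 ± 0.13, edgeR adjusted p = 0.0025). No stages overlapped in these genes. Gli2, the main activator of the Gli family, was at 112 and 161 CPM at E9.5 and 94.7 and 58.9 CPM at E10.5 (log2 change -0.87 ± 0.21, edgeR adjusted p = 0.00949), a call lost without the block (0.0792) and at 0.123 without the E9.5 library of replicate 2 and 0.114 without the E10.5 library of replicate 2. Kif7, a kinesin of the cilium that regulates Gli proteins, was at 33.2 and 37.1 CPM at E9.5 and 51.3 and 42.8 CPM at E10.5 (log2 change 0.42 ± 0.13, edgeR adjusted p = 0.0282), a call lost without the block (0.132) and at 0.238 without the E9.5 library of replicate 1 and 0.26 without the E10.5 library of replicate 1. Grem1, a BMP antagonist that Hedgehog signalling maintains, was at 26.4 and 32 CPM at E9.5 and 62.4 and 52.9 CPM at E10.5 without passing (edgeR adjusted p = 0.206). Gli3, which acts mainly as the repressor, was at 288 and 455 CPM at E9.5 and 359 and 338 CPM at E10.5 (edgeR adjusted p = 0.808). Smo, Sufu, Boc, Gas1 and Hhip had log2 changes of 0.05, 0.13, 0.58, -0.38 and 0.18 and edgeR adjusted p between 0.114 and 0.789. Hhip, another feedback target, stayed near 1 CPM in all 4 libraries, from 0.812 to 1.14 CPM. Of 17 tested members of the list, Zeb2 included, 6 rose and 4 fell, and 4 and 3 without the block. Foxf1, with 26 counts, was not tested.

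Several feedback genes of FGF signalling rose in the mesoderm, and 1, Dusp5, was called lower. Spry2, an inhibitor that FGF receptors induce, stood at 21 and 28 CPM at E9.5 and 65.2 and 75.2 CPM at E10.5 (log2 change 1.52 ± 0.13, edgeR adjusted p = 8.69e-06). Dusp6, an ERK phosphatase that reads out FGF signalling, was at 223 and 270.0 CPM at E9.5 and 608 and 601 CPM at E10.5 (log2 change 1.30 ± 0.23, edgeR adjusted p = 0.00149). Spred3, another inhibitor of the pathway, was at 4.68 and 3.57 CPM at E9.5 and 9.14 and 13.6 CPM at E10.5 (log2 change 1.40 ± 0.23, edgeR adjusted p = 0.000991). In each the E10.5 libraries were both above the E9.5 libraries. Spry1, Spry4, Etv5, Il17rd and the ligand gene Fgf2 were called higher as well, with log2 changes of 1.5, 1.51, 0.61, 0.98 and 2.70. The call of Etv5 was lost without the block (adjusted p = 0.0998) and at 0.0924 without the E10.5 library of replicate 1, 0.0791 without the E10.5 library of replicate 2 and 0.185 without the E9.5 library of replicate 1. That of Spry4 was lost without the block (adjusted p = 0.0597) and at 0.0716 without the E9.5 library of replicate 1, and that of Fgf2 at 0.0505 without the E10.5 library of replicate 2 and 0.0524 without the E9.5 library of replicate 1. Among receptors, Fgfr2 was at 60.1 and 87 CPM at E9.5 and 7.35 and 7.71 CPM at E10.5 (log2 change -3.27 ± 0.31, edgeR adjusted p = 1.64e-05). Fgf10, the mesenchymal ligand that acts on the ridge, was at 65.7 and 102 CPM at E9.5 and 61 and 70.0 CPM at E10.5 (edgeR adjusted p = 0.611), and its stages overlapped. Of 22 tested genes of the FGF list 9 rose and 2, Fgfr2 and the phosphatase gene Dusp5, fell. The call of Dusp5 was lost without the block (adjusted p = 0.0667). It was also lost at 0.0725 without the E9.5 library of replicate 2 and 0.0938 without the E10.5 library of replicate 1. Dusp4, Spred1 and Spred2 were not called. The falls numbered 1 without the block, without E9.5 replicate 2 and without E10.5 replicate 1.

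The BMP ligand genes Bmp2 and Bmp4 rose along with the growth factor gene Gdf5, which marks future joints. Bmp2 was at 1.19 and 1.97 CPM at E9.5 and 10.4 and 12.6 CPM at E10.5 (log2 change 2.88 ± 0.34, edgeR adjusted p = 7.98e-05). Bmp4 was at 70.3 and 67.1 CPM at E9.5 and 141 and 153 CPM at E10.5 (log2 change 1.10 ± 0.23, edgeR adjusted p = 0.0036). Gdf5 was at 0.0955 and 0.123 CPM at E9.5 and 4.62 and 2.66 CPM at E10.5 (log2 change 5.04 ± 0.75, edgeR adjusted p = 0.000449). None of these genes had overlapping stages. Fst, which encodes follistatin, an antagonist of activins and BMPs, was at 3.58 and 2.28 CPM at E9.5 and 0.104 and 0.0682 CPM at E10.5 (log2 change -4.93 ± 0.81, edgeR adjusted p = 0.000899). Bmpr2, a receptor gene, was at 41.1 and 74.6 CPM at E9.5 and 92.1 and 111 CPM at E10.5 (log2 change 0.85 ± 0.14, edgeR adjusted p = 0.00098), with an adjusted p of 0.0879 without the block. The ligand gene Bmp5 was also called higher, a call lost without the block (adjusted p = 0.142), and the ligand gene Bmp7 was not called. In the BMP list 7 of 23 tested members rose and 3 fell, and 4 and 1 without the block. The falls also numbered 1 without E9.5 replicate 1 and without E10.5 replicate 1.

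WNT genes moved both ways. Wnt2 had 13.2 and 6.89 CPM at E9.5 and no counts at E10.5, at least 152-fold lower. Rspo2, which amplifies WNT signals, was at 39.4 and 39.5 CPM at E9.5 and 3.17 and 2.25 CPM at E10.5 (log2 change -3.82 ± 0.36, edgeR adjusted p = 1.56e-05). Sfrp1, a secreted antagonist, was at 128 and 102 CPM at E9.5 and 10.52 and 8.73 CPM at E10.5 (log2 change -3.58 ± 0.27, edgeR adjusted p = 2.85e-06). Wnt11 was at 8.74 and 5.6 CPM at E9.5 and 0.932 and 0.273 CPM at E10.5 (log2 change -3.44 ± 0.35, edgeR adjusted p = 2.51e-05). Those genes were low in both E10.5 libraries. The log2 changes of Rspo1 (-5.0), Wnt2b (-3.03) and Dkk2 (-1.69) were also called, as were those of Rspo3 (2.78), Wnt6 (2.16) and the antagonist Frzb (2.10). The call of Dkk2 was lost without the block (adjusted p = 0.0949) and at 0.146 without the E10.5 library of replicate 1, 0.0504 without the E10.5 library of replicate 2 and 0.124 without the E9.5 library of replicate 2. That of Wnt6 was lost without the block (adjusted p = 0.124) and at 0.165 without the E10.5 library of replicate 1 and 0.0789 without the E9.5 library of replicate 1, and that of Rspo3 at 0.0566 without the E10.5 library of replicate 1 and 0.0811 without the E9.5 library of replicate 2. Axin2, a general target of the β-catenin branch, changed by 0.05 on the log2 scale without passing the test. Of 28 tested genes 7 rose and 12 fell, and 3 and 7 without the block. The rises numbered 3 without E9.5 replicate 1, 4 without E9.5 replicate 2 and 3 without E10.5 replicate 1, where the falls numbered 7.

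Of the Notch pathway the ligand gene Jag1 stood at 8.98 and 9.41 CPM at E9.5 and 141 and 210.4 CPM at E10.5 (log2 change 4.21 ± 0.25, edgeR adjusted p = 6.04e-07). Hey1, a target gene, was at 28 and 21.2 CPM at E9.5 and 164 and 175 CPM at E10.5 (log2 change 2.78 ± 0.37, edgeR adjusted p = 0.000183). Lfng, an enzyme that modifies Notch receptors, was at 2.58 and 1.78 CPM at E9.5 and 5.8 and 5.32 CPM at E10.5 (log2 change 1.34 ± 0.22, edgeR adjusted p = 0.000801). Their stages did not overlap. Dll4, a ligand of endothelial cells, fell from 27.8 and 22.6 CPM to 9.21 and 6.55 CPM (log2 change -1.68 ± 0.29, edgeR adjusted p = 0.0013). Among 16 tested members 5 rose and 1 fell, and the rises numbered 3 without the block or without E9.5 replicate 2.

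The genes with the largest changes that stand in none of these pathways were of mixed kinds. Scn11a, a voltage-gated sodium channel, had no counts at E9.5 and 10.2 and 17.9 CPM at E10.5, at least 159-fold higher, and Mnx1, a homeobox gene, went from no counts to 4.76 and 5.66 CPM, at least 62.8-fold higher. Sv2b, a synaptic vesicle protein, had 1 count at E9.5 and 564 at E10.5, a ratio of 481 (95% counting interval 85.9 to 19000). Tgm3, a transglutaminase, had 2 counts at E9.5 and 443 at E10.5, a ratio of 189 (51.9 to 1560). Pmaip1, which encodes the cell death activator Noxa, was at 0.764 and 0.43 CPM at E9.5 and 139 and 319 CPM at E10.5 (log2 change 8.44 ± 0.86, edgeR adjusted p = 2.67e-05), and replicate 2 was the higher E10.5 library. On the falling side, Col14a1, a fibril-associated collagen, was at 51.3 and 42.1 CPM at E9.5 and 0.138 and 0.205 CPM at E10.5 (log2 change -8.24 ± 0.47, edgeR adjusted p = 3.84e-07). Gata5, a zinc finger factor, had 392 counts at E9.5 and 1 at E10.5, a ratio of 460 (82.1 to 18200).

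The RNA-binding proteins Lin28a and Lin28b of the early embryo fell. Lin28a (chromosome 4, 134003330 to 134018841), which blocks the processing of let-7 microRNAs, was at 368 and 457 CPM at E9.5 and 11 and 9.0 CPM at E10.5 (log2 change -5.29 ± 0.48, edgeR adjusted p = 1.23e-05). Lin28b was at 279 and 420.4 CPM at E9.5 and 62 and 62.8 CPM at E10.5 (log2 change -2.41 ± 0.33, edgeR adjusted p = 0.000259). The E10.5 libraries of both genes lay well below the E9.5 libraries. Per length Lin28a stood at 81.1 and 109 FPKM at E9.5 and 2.96 and 2.48 FPKM at E10.5. Hmga2, a chromatin protein whose mRNA let-7 represses, was at 904 and 1126 CPM at E9.5 and 707 and 565 CPM at E10.5 (log2 change -0.65 ± 0.19, edgeR adjusted p = 0.0215). Hmga1, its relative, was at 577 and 493 CPM at E9.5 and 336 and 238 CPM at E10.5 (log2 change -0.92 ± 0.17, edgeR adjusted p = 0.00165). Both calls were lost without the block (0.128 and 0.119), and that of Hmga2 at 0.0711 without the E9.5 library of replicate 1, 0.103 without the E9.5 library of replicate 2 and 0.232 without the E10.5 library of replicate 2. Igf2bp3, an mRNA-binding protein, was at 477 and 412 CPM at E9.5 and 380.4 and 262 CPM at E10.5 (log2 change -0.48 ± 0.11, edgeR adjusted p = 0.00763), a call lost without the block (0.191) and at 0.113 without the E10.5 library of replicate 2. Igf2bp1 and Igf2bp2, its relatives, and Trim71, another RNA-binding protein, did not pass, with log2 changes of -0.12, -0.12 and -0.87. L1td1, an RNA-binding protein of early embryonic cells, was called higher with a log2 change of 1.51, a call lost at an adjusted p of 0.109 without the E10.5 library of replicate 1 and 0.167 without the E9.5 library of replicate 1. Dnmt3b, a DNA methyltransferase, was called higher with a log2 change of 0.45, a call lost without the block (adjusted p = 0.152) and at 0.336 without the E10.5 library of replicate 1, 0.103 without the E9.5 library of replicate 1 and 0.159 without the E9.5 library of replicate 2. Arid3b, a DNA-binding factor, was called higher with a log2 change of 0.93, a call lost without the block (adjusted p = 0.194) and at 0.462 without the E10.5 library of replicate 1, 0.141 without the E9.5 library of replicate 1 and 0.195 without the E9.5 library of replicate 2. Of 16 tested members of this list 3 rose and 5 fell, with a median of -0.17, and 1 and 2 without the block. The rises numbered 0 without E9.5 replicate 1 and without E10.5 replicate 1 and 1 without E9.5 replicate 2, and the falls numbered 3 without E10.5 replicate 2.

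The listed imprinted genes of embryonic growth were mostly lower. Dlk1, a paternally expressed regulator of differentiation, was at 489.8 and 319 CPM at E9.5 and 27.8 and 17.9 CPM at E10.5 (log2 change -4.13 ± 0.32, edgeR adjusted p = 3.5e-06). Mest, a paternally expressed enzyme, was at 4316 and 4151 CPM at E9.5 and 2839 and 2403 CPM at E10.5 (log2 change -0.69 ± 0.12, edgeR adjusted p = 0.00112). Peg10, derived from a retrotransposon, was at 1306 and 2453 CPM at E9.5 and 656 and 722 CPM at E10.5 (log2 change -1.36 ± 0.23, edgeR adjusted p = 0.00108), with 0.0731 without the block. In each the stages did not overlap. Rian, a noncoding RNA expressed from the maternal copy of the Dlk1 locus, was at 82.1 and 191 CPM at E9.5 and 6.8 and 34.3 CPM at E10.5 (log2 change -3.03 ± 0.27, edgeR adjusted p = 9.11e-06). Meg3, another maternal RNA of that locus, was at 23.2 and 105 CPM at E9.5 and 5.11 and 32.3 CPM at E10.5 (log2 change -1.97 ± 0.43, edgeR adjusted p = 0.00497). Replicate 2 was the higher library at both stages for both RNAs. The 2 calls were lost without the block (0.186 and 0.621), and that of Meg3 at 0.0601 without the E9.5 library of replicate 1 and 0.0541 without the E10.5 library of replicate 2. Cdkn1c, an inhibitor of the cell cycle, was the 1 member that rose, at 156 and 95.5 CPM at E9.5 and 261 and 141 CPM at E10.5 (log2 change 0.65 ± 0.19, edgeR adjusted p = 0.0203), with overlapping stages and a call lost without the block (0.553) and at 0.156 without the E9.5 library of replicate 1, 0.0952 without the E10.5 library of replicate 1 and 0.0736 without the E10.5 library of replicate 2. Of 16 tested genes 1 rose and 10 fell, 0 and 4 without the block, and 6 fell without E10.5 replicate 2.

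Glycolytic enzymes and targets of the hypoxia response were lower at E10.5. When oxygen is low, the factor HIF-1 often binds DNA at the core letters ACGTG and turns on genes of glycolysis. In these data Pdk1, which limits the use of pyruvate in mitochondria, was at 187 and 136 CPM at E9.5 and 47.1 and 51.7 CPM at E10.5 (log2 change -1.71 ± 0.14, edgeR adjusted p = 4.64e-06). Bnip3, a mitochondrial protein of the hypoxia response, was at 101 and 60.1 CPM at E9.5 and 24.7 and 25.3 CPM at E10.5 (log2 change -1.69 ± 0.24, edgeR adjusted p = 0.0003). Ldha, which makes lactate, was at 4489 and 2828 CPM at E9.5 and 1949 and 1209.5 CPM at E10.5 (log2 change -1.21 ± 0.12, edgeR adjusted p = 1.72e-05). Pdk1, Bnip3 and Ldha were lower in both E10.5 libraries, and within each stage replicate 1 had the higher Ldha. Among the glycolytic enzymes Aldoa was at 2328 and 1428 CPM at E9.5 and 1232 and 619 CPM at E10.5 (log2 change -1.06 ± 0.12, edgeR adjusted p = 6.17e-05). Pgk1 was at 769 and 553 CPM at E9.5 and 379 and 264 CPM at E10.5 (log2 change -1.04 ± 0.13, edgeR adjusted p = 0.00014). Pgam1 was at 344 and 236 CPM at E9.5 and 185 and 120.3 CPM at E10.5 (log2 change -0.93 ± 0.10, edgeR adjusted p = 4.88e-05). Aldoa, Ldha, Pgk1 and Pgam1 differed between the replicate numbers in the same direction at both stages, and their calls were lost without the block (adjusted p of 0.237, 0.0722, 0.0588 and 0.124).

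In all 18 of 22 tested members fell and none rose, beside 14% of all tested genes that fell, with a median log2 change of -0.88. Without the block 4 fell, and with 1 library left out between 14 and 16 fell. Gapdh, often used as a reference gene, was at 2037 and 1401 CPM at E9.5 and 1565 and 951 CPM at E10.5 (log2 change -0.47 ± 0.12, edgeR adjusted p = 0.0107), a call lost without the block (0.612) and at 0.0718 without the E9.5 library of replicate 2, 0.0501 without the E10.5 library of replicate 1 and 0.0908 without the E10.5 library of replicate 2. Hk1, which starts glycolysis in most tissues, was at 77.6 and 54.1 CPM at E9.5 and 104 and 68.1 CPM at E10.5 and did not pass (edgeR adjusted p = 0.0548), and Slc2a3, Pfkp and Car9 did not pass either, with log2 changes of 0.10, -0.60 and 0.95. Part of the list was chosen as known targets of hypoxia, so a shared motif in it is not independent of that choice.

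Of the members that fell, Ldha, Bnip3, Pgk1, Hk2 and Ankrd37 carry the core letters more than once, and the promoters of the first 3, whose levels are given above, are shown as examples. The call of Ankrd37 was lost without the block (adjusted p = 0.0745) and at 0.2 without the E10.5 library of replicate 1, 0.0598 without the E10.5 library of replicate 2 and 0.181 without the E9.5 library of replicate 1. The printed sequences were taken from RefSeq promoters (build GRCm38.p6), cut to the 250 bases before the annotated start, and are printed 5′ to 3′ on the strand of the gene. Capitals mark ACGTG on the strand of the gene or its reverse complement CACGT, and runs where the 2 overlap.
Ldha (chr7:46845554-46845803, plus strand): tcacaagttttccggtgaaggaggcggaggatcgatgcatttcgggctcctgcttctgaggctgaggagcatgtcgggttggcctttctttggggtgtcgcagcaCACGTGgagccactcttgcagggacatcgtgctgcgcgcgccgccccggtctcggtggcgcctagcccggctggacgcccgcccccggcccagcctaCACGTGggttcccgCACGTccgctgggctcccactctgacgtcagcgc
Bnip3 (chr7:138909507-138909756, minus strand): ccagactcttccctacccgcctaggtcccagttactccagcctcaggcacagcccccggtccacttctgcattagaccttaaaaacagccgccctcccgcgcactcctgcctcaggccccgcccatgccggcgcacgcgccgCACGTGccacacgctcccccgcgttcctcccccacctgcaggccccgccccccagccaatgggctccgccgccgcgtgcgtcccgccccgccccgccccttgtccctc
Pgk1 (chrX:106186850-106187099, plus strand): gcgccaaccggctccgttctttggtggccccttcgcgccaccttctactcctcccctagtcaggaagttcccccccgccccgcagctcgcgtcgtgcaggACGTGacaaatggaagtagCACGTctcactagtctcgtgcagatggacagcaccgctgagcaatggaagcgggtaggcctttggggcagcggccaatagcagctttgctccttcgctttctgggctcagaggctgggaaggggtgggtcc
The motif was found 5 times upstream of Ldha, 2 times upstream of Bnip3 and 2 times upstream of Pgk1, counting both strands, so that 1 palindrome CACGTG counts 2 times. Among list members with a RefSeq promoter 12 of 20 (60%) held it in those 250 bases, and 11 of the 17 members that fell (64.7%). Ldha has another RefSeq promoter (chr7, from 46846832), in which the motif was found 0 times. For each gene the promoter with the most matches was printed. A gene was counted if any of its RefSeq promoters held the motif. The share was 18.5% of all 27025 genes with a RefSeq promoter, 24.6% of the tested genes with a promoter, and 26.5% of the 1628 genes with a promoter that fell. A match of 5 letters is a description of the sequence and not a bound site.

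**Figure D3:**
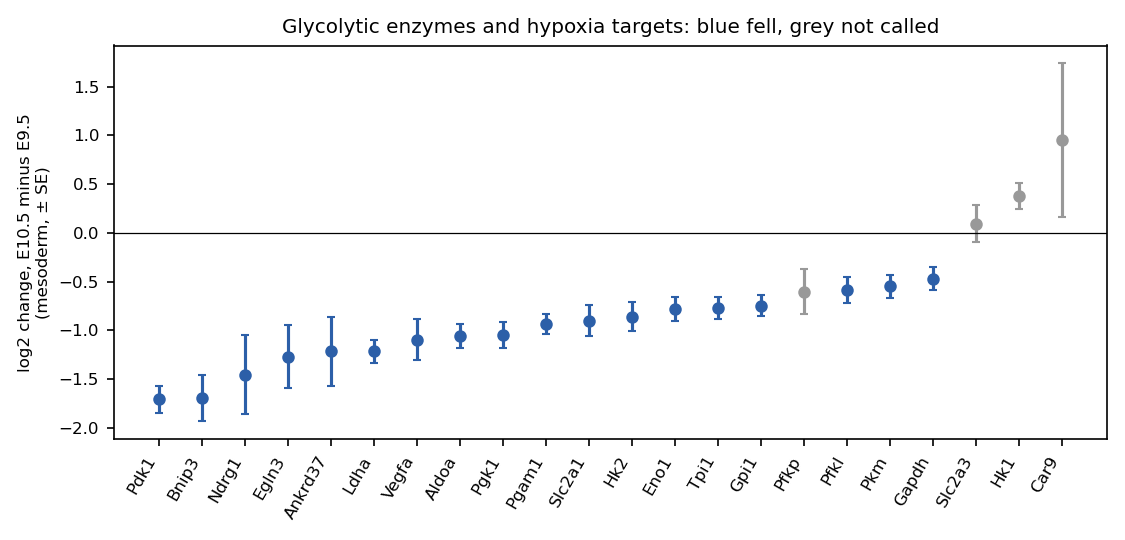
Log2 change (E10.5 minus E9.5, ± SE from the edgeR fit) in mesoderm of the 22 tested genes of the glycolysis and hypoxia list, in rising order. The 18 called genes lie below 0, from Pdk1 at -1.71 to Gapdh at -0.47.

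Of 18 tested cartilage genes 3 rose and 2 fell, close to the shares of all tested genes (13.7% and 14%). Sox5, a cofactor of cartilage genes, was at 12.7 and 15.2 CPM at E9.5 and 38.9 and 38 CPM at E10.5 (log2 change 1.47 ± 0.24, edgeR adjusted p = 0.000892). Col9a1, a cartilage collagen, was at 13.8 and 10.3 CPM at E9.5 and 56.8 and 37.7 CPM at E10.5 (log2 change 1.97 ± 0.28, edgeR adjusted p = 0.000284). Both were higher in each E10.5 library. Hapln1, which links cartilage matrix, fell from 66.9 and 62.7 CPM to 15.4 and 19.1 CPM (log2 change -1.94 ± 0.28, edgeR adjusted p = 0.000394). Sox9, the master factor, had a log2 change of -0.94, and its call was lost without the block (adjusted p = 0.179) and at 0.0884 without the E10.5 library of replicate 1, 0.232 without the E10.5 library of replicate 2, 0.12 without the E9.5 library of replicate 1 and 0.163 without the E9.5 library of replicate 2. The falls numbered 1 without the block or any 1 of the 4 libraries, and the rises 5 without E10.5 replicate 1. Of the fibrous matrix Col1a2 was at 165 and 92.4 CPM at E9.5 and 879 and 469.6 CPM at E10.5 (log2 change 2.38 ± 0.30, edgeR adjusted p = 0.000131). Postn, which encodes periostin, was at 4.97 and 5.96 CPM at E9.5 and 0.069 and 0.136 CPM at E10.5 (log2 change -5.81 ± 0.93, edgeR adjusted p = 0.000753). Col1a2 was the higher in replicate 1 at both stages. In that list 7 of 20 rose and 2 fell, 1 and 1 without the block. The rises numbered 4 without E9.5 replicate 1, 3 without E10.5 replicate 1 and 4 without E10.5 replicate 2, and the falls 1 without E10.5 replicate 1.

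Genes of muscle precursors fell. Lbx1, the homeobox gene of migrating muscle precursors, was at 30.9 and 12.7 CPM at E9.5 and 0.104 and 0.341 CPM at E10.5 (log2 change -6.80 ± 0.57, edgeR adjusted p = 1.11e-05). Pax3, which marks these cells from the somite on, was at 18.4 and 11.4 CPM at E9.5 and 0.173 and 0.955 CPM at E10.5 (log2 change -5.07 ± 0.60, edgeR adjusted p = 8.21e-05). Met, the receptor that they need to leave the somite, was at 34.4 and 14.6 CPM at E9.5 and 2.14 and 3.62 CPM at E10.5 (log2 change -3.18 ± 0.43, edgeR adjusted p = 0.000221). In each the 2 E9.5 libraries were higher than both E10.5 libraries, and replicate 1 had the most at E9.5. Eya1, a cofactor of muscle and other precursors, was at 14.2 and 12.3 CPM at E9.5 and 0.38 and 0.75 CPM at E10.5 (log2 change -4.66 ± 0.33, edgeR adjusted p = 1.51e-06). Des, which encodes the muscle filament desmin, was at 28.4 and 18.4 CPM at E9.5 and 1.79 and 0.887 CPM at E10.5 (log2 change -4.13 ± 0.32, edgeR adjusted p = 3.5e-06). Of 12 tested members 8 fell and none rose, with a median of -3.60, and 7 fell without the block. The summed level of the list was 182.54 and 149.49 CPM at E9.5 and 44.23 and 59.69 CPM at E10.5. Myf5, Myf6, Myod1, Myog, Myl1 and Myh3, markers of differentiating muscle, had between 0 and 10 counts each over the 4 libraries and were not tested. What part these cells play in other falls was not tested.

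Markers of the somite, body wall and mesothelium, tissues of the trunk next to the bud, were mostly lower at E10.5. Upk3b, a mesothelium marker, had 14.1 and 6.03 CPM at E9.5 and no counts at E10.5, at least 154-fold lower. Wt1, a factor of the coelomic lining, had 177 counts at E9.5 and 1 at E10.5, a ratio of 208 (95% counting interval 36.8 to 8250). Meox1, a somite gene, was at 21.5 and 14 CPM at E9.5 and 0.587 and 0.477 CPM at E10.5 (log2 change -5.02 ± 0.38, edgeR adjusted p = 2.85e-06). Lrrn4, another mesothelium marker, was at 4.92 and 4.06 CPM at E9.5 and 0.345 and 0.341 CPM at E10.5 (log2 change -3.70 ± 0.39, edgeR adjusted p = 3.7e-05). These 4 genes were above 3 CPM in each E9.5 library and under 1 CPM in each E10.5 library. In the somite and body wall list 9 of 15 tested genes fell and 1, Tbx6 (log2 change 2.33), rose, with a median of -2.21, and 6 and 0 without the block. The call of Tbx6, a gene of presomitic mesoderm, was lost without the block (adjusted p = 0.058) and at 0.0573 without the E10.5 library of replicate 1, 0.0563 without the E10.5 library of replicate 2 and 0.12 without the E9.5 library of replicate 1. The summed level of the list was 130.19 and 104.91 CPM at E9.5 and 37.92 and 49.25 CPM at E10.5. These markers fell along with the Meis, Irx and HoxB genes above, and their part in those falls was not tested.

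Macrophage genes rose. Csf1r, the receptor that these cells need to survive, was at 0.86 and 0.246 CPM at E9.5 and 9.63 and 10.4 CPM at E10.5 (log2 change 4.33 ± 0.61, edgeR adjusted p = 0.000284). Mrc1, a scavenging receptor, was at 0.334 and 0.369 CPM at E9.5 and 9.01 and 11.1 CPM at E10.5 (log2 change 4.86 ± 0.85, edgeR adjusted p = 0.00128). Cx3cr1, a chemokine receptor, was at 0.287 and 0.184 CPM at E9.5 and 3.76 and 6.89 CPM at E10.5 (log2 change 4.59 ± 0.76, edgeR adjusted p = 0.000905). F13a1, a transglutaminase of tissue macrophages, stood at 0.573 and 0.246 CPM at E9.5 and 4.38 and 7.16 CPM at E10.5 (log2 change 3.84 ± 0.68, edgeR adjusted p = 0.00142). All E9.5 libraries were below 1 CPM for these 4 genes and all E10.5 libraries above 3 CPM. Of 20 tested members 16 rose and none fell, beside 13.7% of all tested genes that rose, with a median of 4.22. The rises numbered 8 without the block or without E10.5 replicate 2, and 6 without E9.5 replicate 1. The summed level was 44.18 and 54.54 CPM at E9.5 and 83.43 and 117.73 CPM at E10.5. Dab2, Pf4, Cd68 and Trem2 did not pass, with log2 changes of -0.65, 0.79, 1.04 and 2.94.

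**Figure D4:**
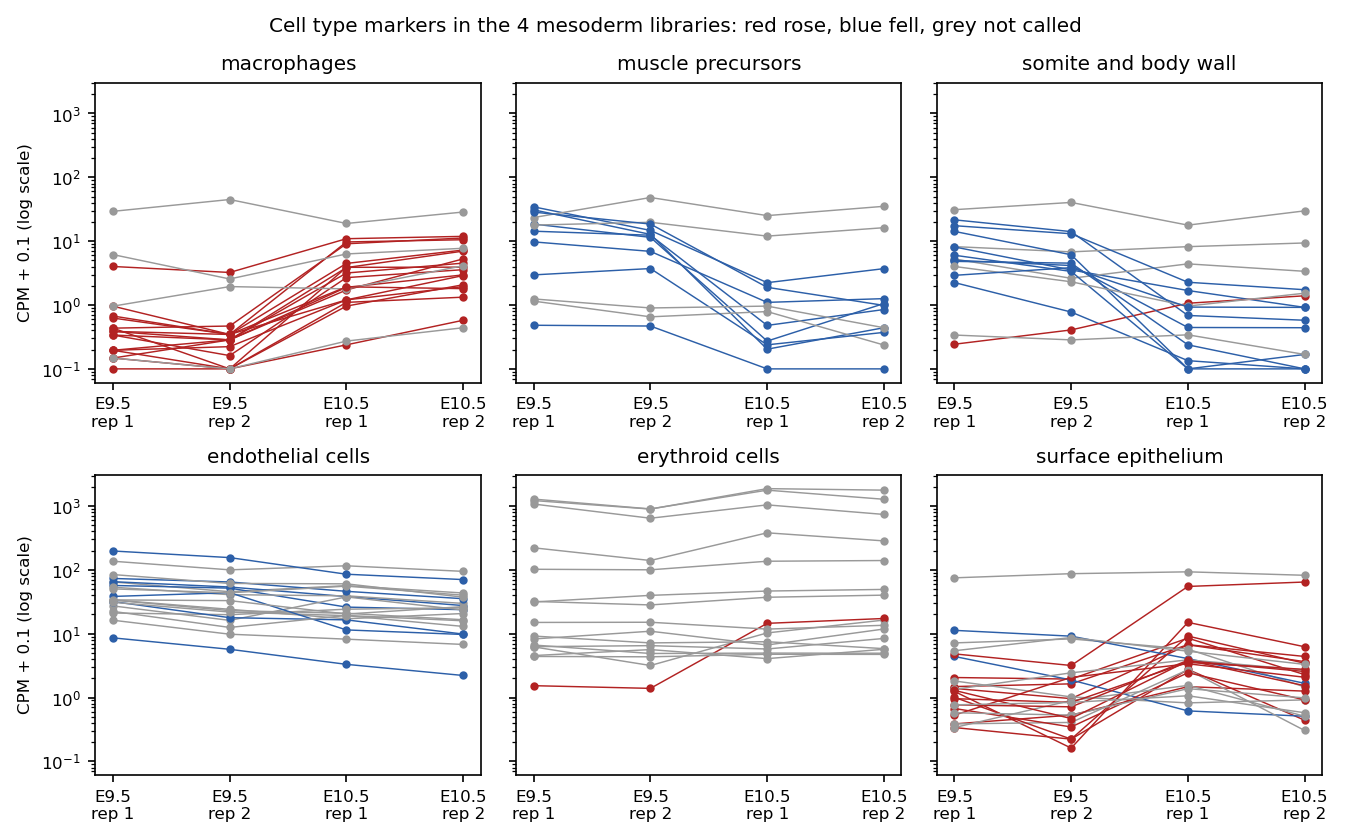
CPM + 0.1 (log scale) of every tested marker of 6 cell types in the 4 mesoderm libraries, 1 line a gene. Macrophage lines go up between the stages, muscle and body wall lines go down, and most erythroid and endothelial lines are grey (not called).

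Vessel and blood genes were present at both stages. Cdh5, the cadherin of endothelial junctions, was at 136 and 99.9 CPM at E9.5 and 116 and 94.5 CPM at E10.5 (edgeR adjusted p = 0.711). Erg, an ETS factor, was at 38.2 and 43.8 CPM at E9.5 and 11.4 and 9.62 CPM at E10.5 (log2 change -1.98 ± 0.39, edgeR adjusted p = 0.00288). Flt1, a VEGF receptor, was at 56.8 and 51.6 CPM at E9.5 and 26 and 23.7 CPM at E10.5 (log2 change -1.13 ± 0.18, edgeR adjusted p = 0.000712). The other VEGF receptor gene Kdr was at 197 and 155 CPM at E9.5 and 85.3 and 70.3 CPM at E10.5 (log2 change -1.18 ± 0.29, edgeR adjusted p = 0.0104), a call lost without the block (0.237) and at 0.0727 without the E9.5 library of replicate 1, 0.0791 without the E10.5 library of replicate 1 and 0.0667 without the E10.5 library of replicate 2. Sox17, a factor of arteries, was at 8.5 and 5.6 CPM at E9.5 and 3.21 and 2.11 CPM at E10.5 (log2 change -1.39 ± 0.38, edgeR adjusted p = 0.018), a call lost without the block (0.137) and at 0.172 without the E9.5 library of replicate 1, 0.0768 without the E10.5 library of replicate 1 and 0.127 without the E10.5 library of replicate 2. Of 20 tested endothelial genes 7 fell and none rose, and 2 fell without the block. The falls numbered 2 without E9.5 replicate 1, 4 without E9.5 replicate 2, 2 without E10.5 replicate 1 and 2 without E10.5 replicate 2.

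Red cell genes were abundant at both stages, and all but 1 missed the test. Hbb-y, an embryonic globin, was at 1216 and 895 CPM at E9.5 and 1869 and 1770.2 CPM at E10.5 (edgeR adjusted p = 0.431), and Klf1, an erythroid factor, at 9.07 and 7.07 CPM at E9.5 and 7.38 and 5.73 CPM at E10.5 (edgeR adjusted p = 0.559). Hbb-bt, an adult-type globin, was the 1 of 16 tested erythroid genes that was called, at 1.43 and 1.29 CPM at E9.5 and 14.4 and 17.2 CPM at E10.5 (log2 change 3.55 ± 0.80, edgeR adjusted p = 0.00594). That call was lost without the block (0.0536) and at 0.0711 without the E9.5 library of replicate 1. Hbb-bt shares reads with its near copy Hbb-bs, so the values of both are uncertain.

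Nerve and neural crest genes were few. Tubb3, a neuronal tubulin, was at 4.92 and 1.78 CPM at E9.5 and 12.8 and 14.3 CPM at E10.5 (log2 change 2.04 ± 0.40, edgeR adjusted p = 0.0028). Dct, a melanoblast enzyme, had 3 counts at E9.5 and 38 at E10.5, a ratio of 10.8 (95% counting interval 3.42 to 54.7), and its call was lost at an adjusted p of 0.0901 without the E9.5 library of replicate 1. Ngfr, a receptor of crest cells and glia, was at 75.4 and 66.5 CPM at E9.5 and 15.5 and 28 CPM at E10.5 (log2 change -1.66 ± 0.51, edgeR adjusted p = 0.0298). Erbb3, which glial precursors need, was at 4.87 and 2.52 CPM at E9.5 and 1.38 and 1.16 CPM at E10.5 (log2 change -1.54 ± 0.47, edgeR adjusted p = 0.0284). Both calls were lost without the block (0.141 and 0.0631). The call of Ngfr was also lost at 0.0643 without the E9.5 library of replicate 1, 0.15 without the E9.5 library of replicate 2 and 0.267 without the E10.5 library of replicate 1, and that of Erbb3 at 0.323 without the E9.5 library of replicate 1, 0.146 without the E10.5 library of replicate 1 and 0.0962 without the E10.5 library of replicate 2. Of 11 tested members 2 rose and 2 fell, beside 13.7% and 14% of all tested genes. None of the members fell without the block, without E9.5 replicate 1 or without E10.5 replicate 1, and 1 fell without either of the other libraries.

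Most markers of the surface epithelium were low but detected in the mesoderm libraries. The median marker stood at 0.604 and 0.857% of its ectoderm level at E9.5 and at 1.38 and 0.746% at E10.5. Tfap2c, a factor on the list, was instead higher in mesoderm than in ectoderm, at 198 and 237.5% of the ectoderm level at E9.5 and 187 and 170.3% at E10.5. Its mesoderm level was 74.8 and 87 CPM at E9.5 and 92.9 and 82.1 CPM at E10.5 (edgeR adjusted p = 0.757). The summed level of the 24 tested markers, Tfap2c included, was 122.98 and 132.09 CPM at E9.5 and 240.07 and 188.67 CPM at E10.5, which is 2.48 and 3.07% of the ectoderm libraries at E9.5 and 2.95 and 2.95% at E10.5. In the mesoderm 13 rose and 2 fell, and 9 and 2 without the block. The rises numbered 7 without E9.5 replicate 1 and 5 without E10.5 replicate 1, and the falls 1 without E9.5 replicate 1. Epcam, an epithelial adhesion protein, was at 1.39 and 1.54 CPM at E9.5 and 6.62 and 4.3 CPM at E10.5 (log2 change 1.94 ± 0.36, edgeR adjusted p = 0.00176). Krt5, a basal keratin, was at 1.15 and 0.0615 CPM at E9.5 and 14.9 and 6.14 CPM at E10.5 (log2 change 4.03 ± 0.67, edgeR adjusted p = 0.000938). Trp63, the master factor of stratified epithelium, was at 1.29 and 0.861 CPM at E9.5 and 6.59 and 3.55 CPM at E10.5 (log2 change 2.26 ± 0.34, edgeR adjusted p = 0.000495), with no overlap between the stages. Fgf8, the signal of the apical ridge, was at 0.907 and 0.123 CPM at E9.5 and 9.07 and 3.34 CPM at E10.5 (log2 change 3.52 ± 0.76, edgeR adjusted p = 0.00485), a call lost at 0.0822 without the E10.5 library of replicate 1. Within E10.5 replicate 1 was the higher library for Epcam, Krt5, Trp63 and Fgf8. Tfap2a, which is listed as an epithelial factor, was at 4.73 and 3.07 CPM at E9.5 and 54.8 and 64.3 CPM at E10.5 (log2 change 3.91 ± 0.36, edgeR adjusted p = 1.27e-05), and at 38.4 and 43% of its ectoderm level at E10.5. None of the 24 markers was without counts at either stage, and their part in other results was not tested. The called falls in this list were Krt19 (-2.70) and Krt18 (-1.78), keratins that mesothelium also makes, and the call of Krt19 was lost at an adjusted p of 0.0627 without the E10.5 library of replicate 1 and 0.0838 without the E9.5 library of replicate 1.

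Few cell division genes were called. Mki67, a protein of dividing cells, was at 394 and 481 CPM at E9.5 and 608 and 587 CPM at E10.5 (edgeR adjusted p = 0.0762), and Ccne1, a cyclin of the entry into DNA replication, at 225 and 201 CPM at E9.5 and 105 and 91.8 CPM at E10.5 (log2 change -1.11 ± 0.12, edgeR adjusted p = 4.27e-05). Both Ccne1 libraries of E10.5 were below those of E9.5. Ccnb2, a mitotic cyclin, was at 90.1 and 74.8 CPM at E9.5 and 120.2 and 109 CPM at E10.5 (log2 change 0.48 ± 0.08, edgeR adjusted p = 0.0014), with 0.122 without the block. Of 30 tested genes 3 rose and 2 fell, under the 13.7% and 14% of all tested genes, and without the block none rose and 1 fell. Cdkn1c, the inhibitor of the cell cycle described above, was 1 of the rises. The rises numbered 1 without E9.5 replicate 1, E10.5 replicate 1 or E10.5 replicate 2, and the falls 1 without either E10.5 library. Of 21 tested stress and dissociation genes 3 rose and 2 fell, beside 13.7% and 14% of all tested genes. None of these stress genes were called without the block. With 1 library left out, between 0 and 2 stress genes rose and between 0 and 2 fell. Atf3, an early stress gene, was at 6.59 and 5.6 CPM at E9.5 and 2.48 and 2.39 CPM at E10.5 (log2 change -1.33 ± 0.39, edgeR adjusted p = 0.0242), a call lost without the block (0.135) and at 0.0881 without the E9.5 library of replicate 1, 0.0965 without the E9.5 library of replicate 2, 0.192 without the E10.5 library of replicate 1 and 0.0711 without the E10.5 library of replicate 2.

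Some RNAs differed between the replicate numbers at both stages. Xist, the noncoding RNA of the inactive X, was at 22.5 and 236 CPM at E9.5 and 30.2 and 469 CPM at E10.5 (edgeR adjusted p = 0.283), higher in replicate 2 at both stages. Ddx3y, a gene of the Y chromosome, was at 21.2 and 39 CPM at E9.5 and 14.6 and 27.4 CPM at E10.5 (edgeR adjusted p = 0.212), also higher in replicate 2. None of the 5 sex chromosome genes was called for the step, and 1 was called lower without E10.5 replicate 2. The extraction kit and the embryo batch cannot be told apart.

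**Figure D5:**
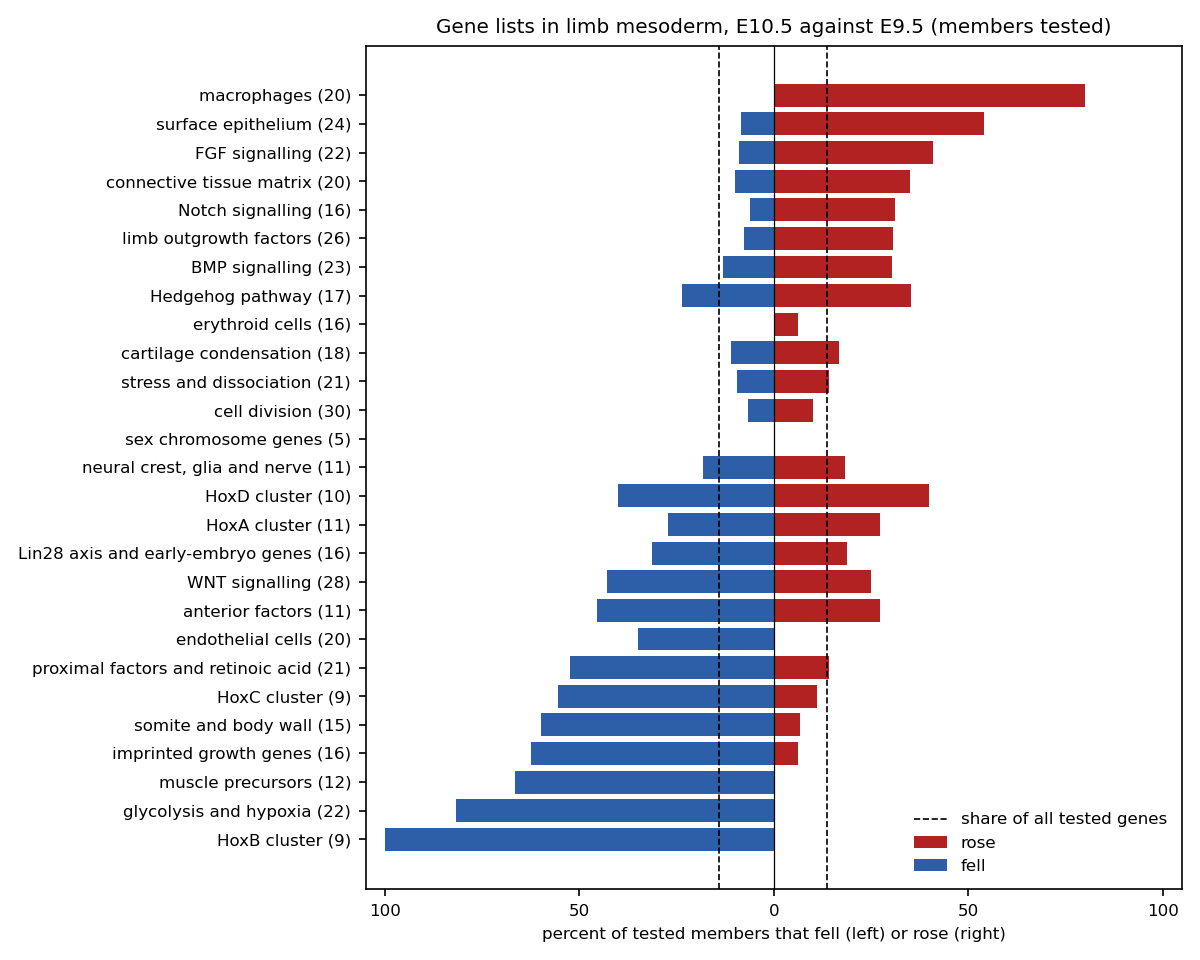
Percent of the tested members of each gene list that fell (left, blue) or rose (right, red) in mesoderm from E9.5 to E10.5, with the number tested in brackets and dashed lines at the shares of all tested genes (14% fell, 13.7% rose). HoxB genes, glycolysis and hypoxia genes and muscle precursor genes stand on the left and macrophage genes on the right.

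A test of the difference between the layers asked which genes changed by a different amount in mesoderm than in ectoderm. A gene called by it may have changed in both layers. In 1126 genes (7.26% of those tested) the first-day change of the mesoderm differed from that of the ectoderm, 519 more positive in mesoderm (3.35%) and 607 more negative (3.92%). Without the block there were 352. Leaving out a mesoderm library gave 673 and 889 (E9.5 replicate 1 and 2) or 603 and 746 (E10.5), and leaving out an ectoderm library 740 and 539 (E9.5) or 621 and 753 (E10.5). Cyp26b1 stood in ectoderm at 441 and 364 CPM at E9.5 and 428 and 342 CPM at E10.5, so that the mesoderm change exceeded that of the ectoderm by 5.15 ± 0.29 on the log2 scale (edgeR adjusted p = 2.24e-06). Meis2 stood in ectoderm at 233 and 229.7 CPM at E9.5 and 114 and 93.8 CPM at E10.5, a difference of -4.51 ± 0.21 (edgeR adjusted p = 6.29e-07), and Irx3 at 26 and 21.2 CPM at E9.5 and 7.45 and 3.74 CPM at E10.5, a difference of -5.21 ± 0.39 (edgeR adjusted p = 1.6e-05). All 3 genes moved far more in mesoderm than in ectoderm. The difference between layers was called in 7 of 9 HoxB genes and 5 of 9 HoxC genes, each time more negative in mesoderm, in 1 HoxA gene and in no HoxD gene. It was not called in any macrophage, endothelial or sex chromosome gene. A missed call does not show that the ectoderm shared a change. In ectoderm Csf1r was at 0.211 and 0.181 CPM at E9.5 and 0.177 and 0.2 CPM at E10.5. Its difference between layers was 4.4 ± 1.72 (edgeR adjusted p = 0.158), and that of Cx3cr1 was 2.98 ± 1.98 (edgeR adjusted p = 0.44).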

How the data were processed

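Per the submitters' processing notes, reads were handled by the authors with STAR 2.6.0c, Cufflinks 2.2.1, bedtools 2.27.1 and cutadapt 1.16, and the build was mm10. The authors deposited whole-number counts per Ensembl gene (53800 genes) and, from Cufflinks, FPKM values (53836 genes). The counting tool and whether it used strand are not given in the sources used here. The deposited exon bin files were not used.

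Counts were fitted with edgeR 4.0.16 in R 4.3.3 (TMM, filterByExpr by group, quasi-likelihood F test) on all 16 libraries, with 1 mean for each of 8 groups and the replicate number as a block. The block is the pairing that the labels give, an RNA kit for each number. As a check, the differences between replicates correlated across genes with Pearson's r of 0.529 between the 2 mesoderm stages, and of 0.427 to 0.666 over the 28 pairs of groups. The filter kept 15501 of 28342 genes with any count. The call threshold was 0.05 on p-values adjusted by Benjamini-Hochberg across the genes tested. The p-values rest on the spread that the block leaves between the 2 libraries of a group, estimated over all 16 libraries. Each stage has only 2 embryo batches. The same model tested the difference between layers. It has no term for the embryo batch that mesoderm and ectoderm libraries of the same stage and number share, so this pairing was not used. Between the layers, the replicate differences correlated with r of 0.546 at E9.5 and 0.666 at E10.5. The model was tested on simulated data.

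Libraries held between 10005867 and 30438214 counts. The floor of 3 counts over a group was 0.0806 CPM at E9.5 and 0.0687 CPM at E10.5, and intervals and floors cover counting error only. For genes with 1 to 3 counts at a stage the ratio has its 95% counting interval, computed with scipy 1.17.1.

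The members and the gene lists were chosen with earlier results of these data known. Named genes are the 12 largest rises and 12 largest falls among called genes without overlap between stages and with at least 5 CPM in the higher stage (predicted genes left out), the 4 called members of each list with the smallest adjusted p, every Hox cluster and Hedgehog member, and the 5 genes in each direction with the smallest p for the layer difference. Those last genes were taken only from genes also called in the mesoderm step, with a mean of at least 5 CPM in a group (predicted genes left out). A few genes that this rule takes are not reported here. Others were named after their values were seen. These are Aldh1a2, Rdh10, Rarg, Prrx1, Tbx5, Fgf10, Fgf8, Dusp6, Bmp4, Bmp5, Bmp7, Hmga2, Bnip3, Pgk1, Gapdh, Hk1, Met, Cdh5, Kdr, Hbb-y, Klf1, Epcam, Krt5, Trp63, Mki67, Meg3, Xist, Ddx3y, Cubn, Nrp2, Epha4, Cdh11, Npm1, Pabpc1, Tfap2c, Ankrd37, Hk2, the other genes listed by CPM difference, and those given with a log2 change alone. Alternatives were no block, a block for each layer, DESeq2 1.42.0 and its size factors, no filter on low counts, a test against a fold of 2, fewer libraries, each library left out, and limma 3.58.1 on log2(FPKM + 0.1) and log2(FPKM + 1). Promoters came from RefSeq (GRCm38.p6).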

Additional observations from a re-analysis of the deposited data

Results flagged for a closer look

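The step differed between the layers in 1126 genes by the test of the difference itself, and these are the results that stand out for that reason. The genes named here are the 5 with the smallest p in each direction among those also called in the mesoderm, so that call was a condition of the choice. Cyp26b1 changed by 5.15 more on the log2 scale in mesoderm than in ectoderm, and the same difference was -4.51 for Meis2 and -5.21 for Irx3.

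Dlx5, a homeobox gene of the ridge and mesenchyme, was in mesoderm at 0.382 and 0.369 CPM at E9.5 and 12.8 and 15.6 CPM at E10.5 and in ectoderm at 62.8 and 72.5 CPM at E9.5 and 91.7 and 89.7 CPM at E10.5, a difference of 4.79 (edgeR adjusted p = 2.09e-05). Dgkk, a lipid kinase, was in mesoderm at 5.01 and 4.55 CPM at E9.5 and 34.7 and 51.2 CPM at E10.5 and in ectoderm at 62.5 and 70.7 CPM at E9.5 and 22.5 and 23.4 CPM at E10.5, a difference of 4.66 (edgeR adjusted p = 1.51e-05). Nlgn3, an adhesion protein of synapses, was in mesoderm at 0.43 and 0.492 CPM at E9.5 and 5.55 and 6.28 CPM at E10.5 and in ectoderm at 8.12 and 9.29 CPM at E9.5 and 5.59 and 5.54 CPM at E10.5, a difference of 4.33 (edgeR adjusted p = 4.83e-05). Cep170b, a centrosome protein, was in mesoderm at 9.93 and 8.3 CPM at E9.5 and 77.7 and 71.8 CPM at E10.5 and in ectoderm at 281 and 233 CPM at E9.5 and 302 and 267 CPM at E10.5, a difference of 2.89 (edgeR adjusted p = 3.48e-06).

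Tagln, an actin-binding protein of smooth muscle, was in mesoderm at 14.6 and 8.12 CPM at E9.5 and 1.28 and 0.887 CPM at E10.5 and in ectoderm at 3.38 and 3.8 CPM at E9.5 and 38.1 and 31.8 CPM at E10.5, a difference of -6.59 (edgeR adjusted p = 1.6e-05). Nebl, another actin-binding protein, was in mesoderm at 8.31 and 10.7 CPM at E9.5 and 0.759 and 0.341 CPM at E10.5 and in ectoderm at 18 and 18.2 CPM at E9.5 and 34.2 and 54.7 CPM at E10.5, a difference of -5.16 (edgeR adjusted p = 1.51e-05). Ptn, which encodes the growth factor pleiotrophin, was in mesoderm at 298 and 309 CPM at E9.5 and 91.8 and 126 CPM at E10.5 and in ectoderm at 198 and 229.9 CPM at E9.5 and 430.4 and 588 CPM at E10.5, a difference of -2.74 (edgeR adjusted p = 1.51e-05).

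By list, and beside 7.26% of all tested genes, the layers differed in 7 HoxB genes, 5 HoxC genes and 11 genes of the proximal and retinoic acid list (2 more positive and 9 more negative in mesoderm). They also differed in 6 FGF genes (5 and 1), 9 WNT genes (1 and 8), 5 stress genes (0 and 5) and 5 imprinted genes (4 and 1).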

How the results depend on the processing

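The count of genes changed in mesoderm was 4297. With no replicate block it was 1433, against a fold of 2 (glmTreat) it was 671, and with 1 library left out it ran from 2216 to 3332. It was between 3451 and 4334 under the remaining settings. The count of genes whose change differed between the layers was 1126, with no replicate block 352, against a fold of 2 it was 248, and with 1 library left out it ran from 539 to 889. It was between 1124 and 1615 under the remaining settings, the highest without the filter on low counts and 1509 with DESeq2. The cause of these differences was not tested, beyond the smaller number of libraries. Of 138 called genes named by the rule, 117 were called in each of the 4 fits without 1 mesoderm library and 108 without the block. The log2 change of 5 genes that missed the test changed sign when 1 library was left out. It ran over the left-out libraries from -0.43 to 0.33 in Gli3, from -0.83 to 0.24 in Fgf10, from -0.69 to 0.0049 in Prrx1, from -0.15 to 0.50 in Hhip and from -0.069 to 0.36 in Sufu. For Gli3 it was also 0.060 on log2(FPKM + 0.1) and 0.057 on log2(FPKM + 1). Of 756 list counts under alternatives, 579 were within 1.5 times the reported count. On the FPKM scale 65.1% of the calls were higher at E10.5, against 49.5% on counts. A test of 2 libraries against 2 sees small changes poorly, and a gene under the floor of 3 counts was not detectable at this depth.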

Other observations

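By mean CPM the 10 largest falls among called genes were in Eef1a1, Npm1 and Pabpc1 (translation), Ldha and Pkm (glycolysis), H19, Mest, Peg10 and Peg3 (imprinted list) and the chaperone gene Hsp90ab1. Hsp90ab1 went from a mean of 7495 ± 988 CPM to 5727 ± 1320.1 CPM (SD, n = 2), with a log2 change of -0.40 (edgeR adjusted p = 0.00342) and a call lost without the block (adjusted p = 0.436) and at 0.068 without the E10.5 library of replicate 2. Without the block the calls of Eef1a1, Pkm and H19 were lost (adjusted p of 0.657, 0.473 and 0.0683). Leaving out 1 library, the call of Eef1a1 was lost at 0.19 without the E10.5 library of replicate 1, 0.0882 without the E10.5 library of replicate 2 and 0.191 without the E9.5 library of replicate 1, that of Pkm at 0.0768 without the E10.5 library of replicate 2 and 0.0539 without the E9.5 library of replicate 2, that of H19 at 0.0558 without the E10.5 library of replicate 2 and that of Peg3 at 0.0882 without the E10.5 library of replicate 2 and 0.0571 without the E9.5 library of replicate 2. Npm1, a nucleolar protein of ribosome assembly, was at 3783 and 3336 CPM at E9.5 and 1952 and 1896 CPM at E10.5 (log2 change -0.89 ± 0.11, edgeR adjusted p = 9.24e-05), and Pabpc1, which binds poly(A) tails, at 2649.8 and 2128 CPM at E9.5 and 1341 and 1022 CPM at E10.5 (log2 change -1.02 ± 0.08, edgeR adjusted p = 5.34e-06). Of 83 tested ribosomal protein genes, a group chosen after the values were seen, 57 fell and none rose, with a median log2 change of -0.40, and of 67 translation factor genes 34 fell and 1 rose, with a median of -0.35. The shares of all tested genes were 14% and 13.7%.

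The 10 largest rises by mean CPM among called genes were in Cyp26b1, Nrp2, Hoxd13, Col1a2, Nnat, Cdh11, Wnt5a, Myh9, Gnas and Epha4, in this order. Nnat and Gnas, which are imprinted too, were not on the imprinted list. Without the block the calls of Nnat and Gnas were lost (adjusted p of 0.244 and 0.378), and that of Gnas also at 0.0578 without the E10.5 library of replicate 1 and 0.0757 without the E9.5 library of replicate 1. Nrp2, a receptor for semaphorins and VEGFs, was at 119 and 87.6 CPM at E9.5 and 852 and 887 CPM at E10.5 (log2 change 3.09 ± 0.21, edgeR adjusted p = 1.38e-06), and Epha4, an ephrin receptor, at 43.7 and 45.8 CPM at E9.5 and 426 and 446 CPM at E10.5 (log2 change 3.29 ± 0.21, edgeR adjusted p = 9.4e-07). Cdh11, a mesenchymal cadherin, was at 179.7 and 162 CPM at E9.5 and 723 and 686 CPM at E10.5 (log2 change 2.05 ± 0.59, edgeR adjusted p = 0.0211), a call lost without the block (0.0915) and at an adjusted p of 0.15 without the E9.5 library of replicate 1, 0.0788 without the E9.5 library of replicate 2, 0.0522 without the E10.5 library of replicate 1 and 0.1 without the E10.5 library of replicate 2.

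Cubn, which encodes the endocytic receptor cubilin, was at 0.621 and 39.2 CPM at E9.5 and 0.276 and 0.136 CPM at E10.5 (log2 change -6.06 ± 1.47, edgeR adjusted p = 0.00916), so that 1 of the 4 libraries, E9.5 replicate 2, held nearly all of it. Its call was lost at 0.304 without the E9.5 library of replicate 2, 0.0513 without the E10.5 library of replicate 1 and 0.0905 without the E10.5 library of replicate 2.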
